A study of Mus musculus with 12 samples.

Results

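The genes described here are 35 aminoacyl-tRNA synthetases, 19 of the cytosol and 16 of the mitochondrion, out of 55487 genes in the count table. They were listed by symbol, and the list was drawn up with earlier results of these data known. The question asked was whether their mRNA differed between ARG1+ and ARG1- microglia and whether Lars2 followed the other members. Bulk RNA-seq was performed on 12 libraries of microglia sorted from the basal forebrain and striatum of YARG mice at postnatal day 13. YARG mice carry a YFP reporter at the Arg1 locus, and both populations came from this strain, so the allele was shared by all groups. Cells were sorted as CX3CR1+ and CD206-, then split by YFP into ARG1+ and ARG1- microglia. Each population had 3 female and 3 male libraries, and per the study's methods each library came from the pooled tissue of several mice. Both populations were sorted from such pools of a litter, so libraries of the 2 populations may share animals, but the labels do not tie them and no test below pairs them. Total counts lay between 28356659 and 60625170 per library, of which synthetase reads made up 0.205% to 0.265%. Reads carried no molecular identifiers, and the p-values below measure the spread between these pooled libraries.

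The YFP label could not be checked on Arg1 in these counts. Arg1 had 0 counts in all 6 ARG1- libraries and in 4 of the 6 ARG1+ libraries, with 2 and 52 counts in the others. The study likewise saw no Arg1 transcripts in its RNA-seq. By RT-qPCR on sorted cells it reported Arg1 expression only in the YFP+ population, and by immunohistochemistry it found ARG1 and YFP protein in the same cells. Markers of microglia were abundant in both populations. The summed CPM of 8 such markers lay between 47700 and 63600 in ARG1- libraries and between 37600 and 48400 in ARG1+ libraries. Of the 8, 6 passed the test described below as lower in the ARG1+ population, against 9.42% of all genes tested.

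Aminoacyl-tRNA synthetases join each amino acid to its tRNA, the step that fixes the genetic code during translation. Mammalian cells keep separate nuclear-encoded sets for the cytosol and for the mitochondrion, and in mice most mitochondrial members carry a symbol that ends in 2. Several cytosolic enzymes sit together in the multi-synthetase complex, held by the scaffold proteins encoded by Aimp1, Aimp2 and Eef1e1. The enzymes also fall into class I and class II, which differ in the fold of the catalytic domain. Many cytosolic synthetase genes are known targets of ATF4, the transcription factor of the amino acid response. In bulk samples, less RNA of a gene per cell and fewer cells that express it cannot be told apart.

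All 35 genes passed the filter on low counts. With edgeR's quasi-likelihood test, sex as a second term and Benjamini-Hochberg adjustment over 16908 genes, 7 synthetases fell in ARG1+ microglia, 0 rose and 28 did not pass an adjusted p of 0.05. Over all genes tested, 15.9% passed that limit, 6.44% as higher and 9.42% as lower. At an unadjusted p under 0.05, 12 of the 35 passed, and the share over all genes was 29.1%. DESeq2's Wald test called 2 synthetases higher, Sars2 and Nars2, and the share over all genes in that test was not counted. In 6 of the 35 genes, each among the 7 called by edgeR, the 6 ARG1+ libraries all lay below the 6 ARG1- libraries. That pattern was found in 6.56% of all genes tested, called or not. The log2 fold change (ARG1+ over ARG1-) was negative in 22 of the 35 and had a median of -0.19, against 46.4% negative and a median of 0.06 over all genes.

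**Figure D1:**
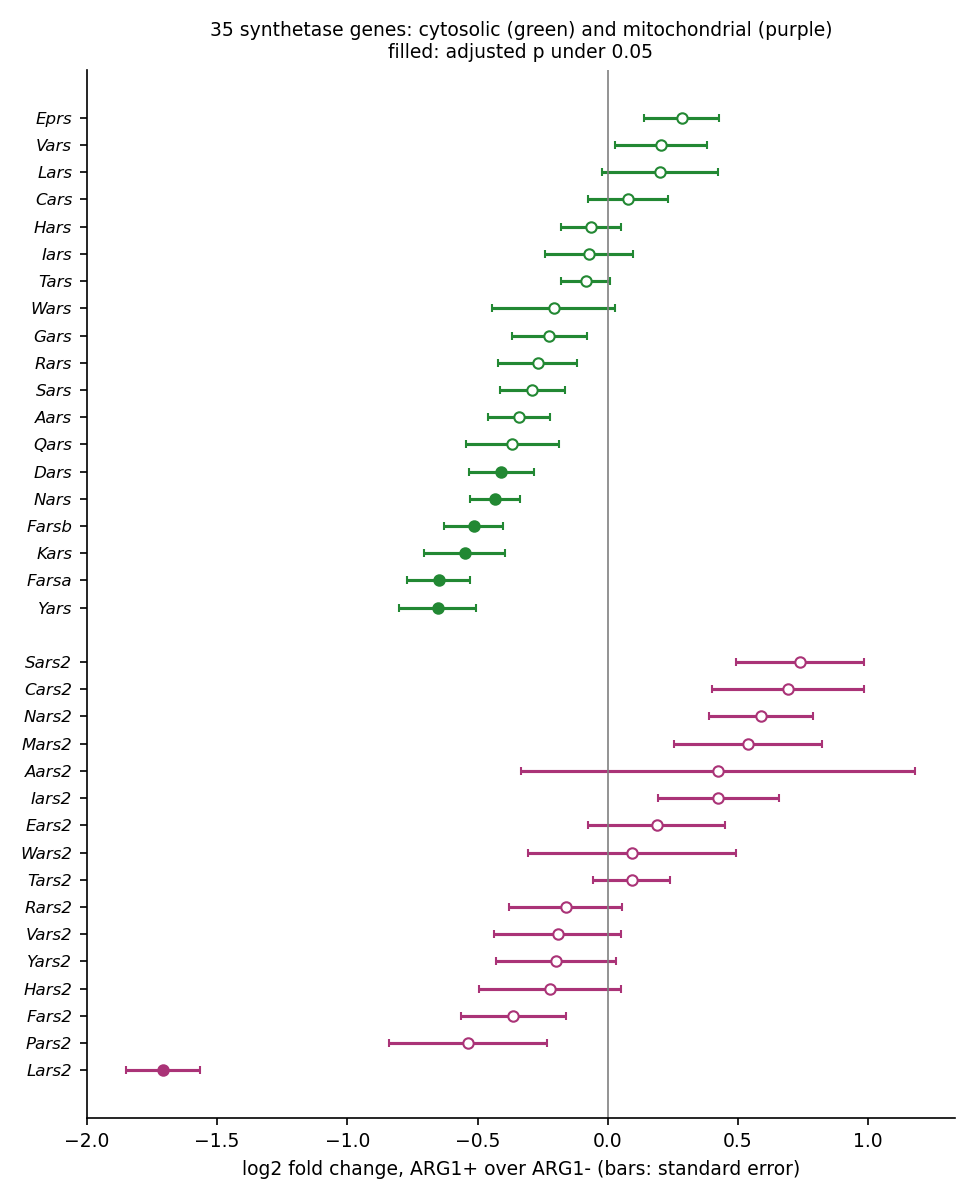
Log2 fold change of ARG1+ over ARG1- microglia (x axis) for each of the 35 synthetase genes, cytosolic genes in green and mitochondrial genes in purple, with the standard error as a bar and filled circles at an adjusted p under 0.05. The 6 filled cytosolic circles lie between -0.65 and -0.41, and the single filled mitochondrial circle, Lars2, lies at -1.71.

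Of the 19 cytosolic genes 6 fell (Farsa, Farsb, Nars, Yars, Kars and Dars), and the log2 fold change was negative in 15, with a median of -0.27 and a range of -0.65 to 0.28. Of the 16 mitochondrial genes only Lars2 fell, against 9.42% of all genes tested. The other 15 had log2 fold changes between -0.54 and 0.74 with a median of 0.09, and 9 of them were positive. The median of those 15 became -0.11, and 9 of the 15 were then negative, after a correction of each library for transcript length and GC content, while that of the cytosolic genes stayed negative at -0.30.

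The genes of phenylalanyl-tRNA synthetase, an enzyme of alpha and beta subunits, both fell (coordinates here and below are on GRCm38). Farsa (ENSMUSG00000003808, chr8:84856989-84869257, plus strand), which encodes the alpha subunit, had from 91.1 to 111 CPM (counts scaled to the TMM-normalised library total, median 94.7) in ARG1- libraries and from 42.6 to 72.6 CPM (median 64.9) in ARG1+ libraries. The populations did not overlap, and the means were 97.3 ± 7.18 CPM and 62.2 ± 10.6 CPM (SD, n = 6 each). The log2 fold change of Farsa was -0.65 (SE 0.12, edgeR adjusted p = 0.00446). Farsb (ENSMUSG00000026245, chr1:78417975-78488897, minus strand), which encodes the beta subunit, ranged from 57.7 to 77.6 CPM (median 67.0) in ARG1- libraries and from 39.3 to 52.5 CPM (median 47.8) in ARG1+ libraries. These populations did not overlap either, and the log2 fold change was -0.51 (SE 0.11, edgeR adjusted p = 0.00949). The call of Farsb was lost after that correction (log2 fold change -0.31, adjusted p = 0.0715).

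Nars (ENSMUSG00000024587), the asparaginyl enzyme, was the synthetase with the highest level per length in both populations. It had 118 CPM per kb of transcript in ARG1- and 87.3 CPM per kb in ARG1+ microglia. Levels per kb use the longest annotated protein-coding transcript, and the isoforms expressed were not determined. Nars ranged from 284 to 365 CPM (median 324) in ARG1- libraries. In ARG1+ libraries the range was 196 to 281 CPM (median 233), again without overlap. The log2 fold change of Nars was -0.43 (SE 0.10, edgeR adjusted p = 0.0102). Yars (ENSMUSG00000028811, chr4:129189760-129219607, plus strand), the tyrosyl enzyme, ranged from 69.4 to 117 CPM (median 92.5) in ARG1- libraries. Its ARG1+ libraries lay between 41.2 and 66.3 CPM (median 61.01), below every ARG1- library. The log2 fold change of Yars was -0.65 (SE 0.15, edgeR adjusted p = 0.0111).

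Kars and Dars, the lysyl and aspartyl enzymes of the multi-synthetase complex, fell at adjusted p-values near the limit. Kars (ENSMUSG00000031948, chr8:111993443-112011323, minus strand), whose gene serves the cytosol and the mitochondrion, ranged from 38.4 to 71.4 CPM (median 57.4) in ARG1- libraries and from 34.6 to 46.1 CPM (median 38.2) in ARG1+ libraries. The populations overlapped through the lowest ARG1- library, and the log2 fold change was -0.55 (SE 0.16, edgeR adjusted p = 0.0316). Dars (ENSMUSG00000026356, chr1:128363707-128417368, minus strand) ranged from 95.5 to 154 CPM (median 110) in ARG1- libraries and from 83.4 to 90.4 CPM (median 89.4) in ARG1+ libraries. The ARG1+ libraries of Dars lay close together and below every ARG1- library, and the log2 fold change was -0.41 (SE 0.13, edgeR adjusted p = 0.0448). With 1 library left out, Kars passed the limit in 4 of 12 fits and Dars in 2 of 12. The log2 fold change stayed negative in those fits, from -0.62 to -0.47 for Kars and from -0.47 to -0.31 for Dars. Of the 9 other settings, Kars passed in 7 and Dars in 4. After the correction for transcript length and GC content the log2 fold change was -0.45 for Kars (adjusted p = 0.0602) and -0.13 for Dars (adjusted p = 0.575).

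**Figure D2:**
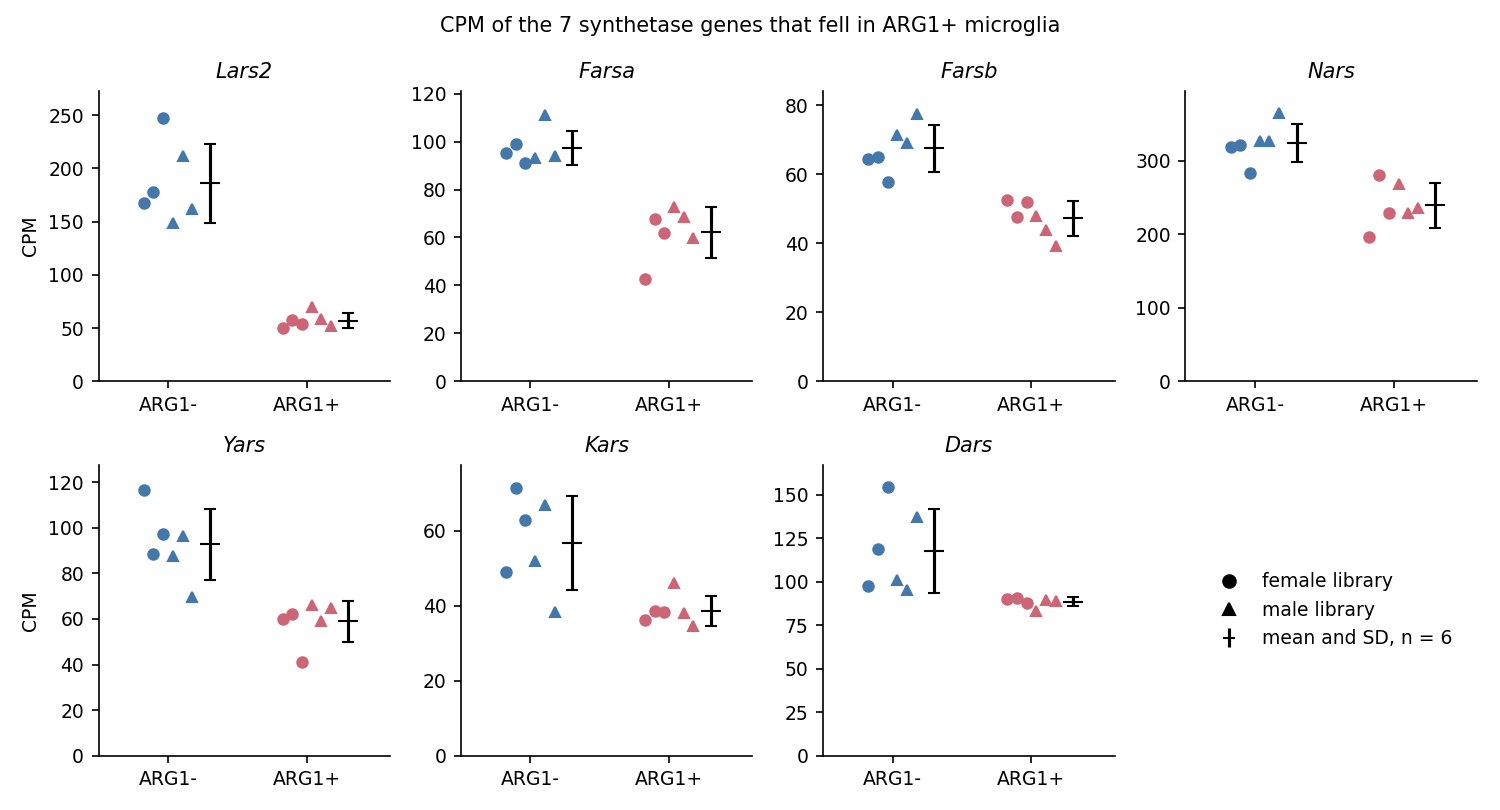
CPM (y axis, from 0) of the 7 synthetase genes at an adjusted p under 0.05 in each ARG1- (blue) and ARG1+ (red) library, circles for female and triangles for male libraries, with the mean and SD of 6 libraries in black. The populations separate in every panel except that of Kars.

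Genes fell inside and outside the multi-synthetase complex. Of the 7 members analysed here that belong to it (Dars, Eprs, Iars, Kars, Lars, Qars and Rars) 2 fell, with a median log2 fold change of -0.27, and of the 12 free cytosolic enzymes 4 fell, with a median of -0.26. By enzyme class, among the 10 cytosolic genes of class II (Aars, Dars, Farsa, Farsb, Gars, Hars, Kars, Nars, Sars and Tars) 5 fell, all 10 log2 fold changes were negative and their median was -0.38. One of the 10 turned positive without the ARG1+ male library 11, and 1 did so after that correction. Among the 8 analysed here of class I (Cars, Iars, Lars, Qars, Rars, Vars, Wars and Yars) only Yars fell, and the median was -0.14. The bifunctional Eprs joins both classes and was counted in neither. In the mitochondrial set the class medians were both 0.09. Over all genes tested, 9.42% passed as lower. Differences between the compartments, the classes, or complex and free enzymes were not tested.

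The 13 cytosolic genes without a call had log2 fold changes from -0.37 for Qars, the glutaminyl enzyme, to 0.28 for Eprs, which charges glutamate and proline. Aars, the alanyl enzyme and the second most abundant member by CPM, had 263 ± 42.3 CPM in ARG1- and 209 ± 25.4 CPM in ARG1+ microglia (n = 6 each, log2 fold change -0.34, SE 0.12, edgeR adjusted p = 0.0730). After that correction, Aars passed the limit at a log2 fold change of -0.86 (adjusted p = 0.000238), and so did Sars, the seryl enzyme, at -0.50 (adjusted p = 0.0159). Lars, the cytosolic counterpart of Lars2, had 74.6 ± 21.2 CPM in ARG1- and 87.1 ± 23.5 CPM in ARG1+ microglia, with populations that overlapped widely (log2 fold change 0.20, SE 0.22, edgeR adjusted p = 0.602). Summed over the 19 genes, cytosolic synthetase mRNA was 2078 ± 58.4 CPM in ARG1- libraries (from 1977 to 2155) and 1782 ± 170 CPM in ARG1+ libraries (from 1552 to 1997). The 2 ranges overlapped through 1 ARG1+ male library at 1997 CPM. Between libraries of 1 population the median SD of log2 CPM for cytosolic genes was 0.287 in ARG1- and 0.199 in ARG1+ microglia. Over all genes tested it was 0.524 and 0.381, and the sets were not matched for level.

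**Figure D3:**
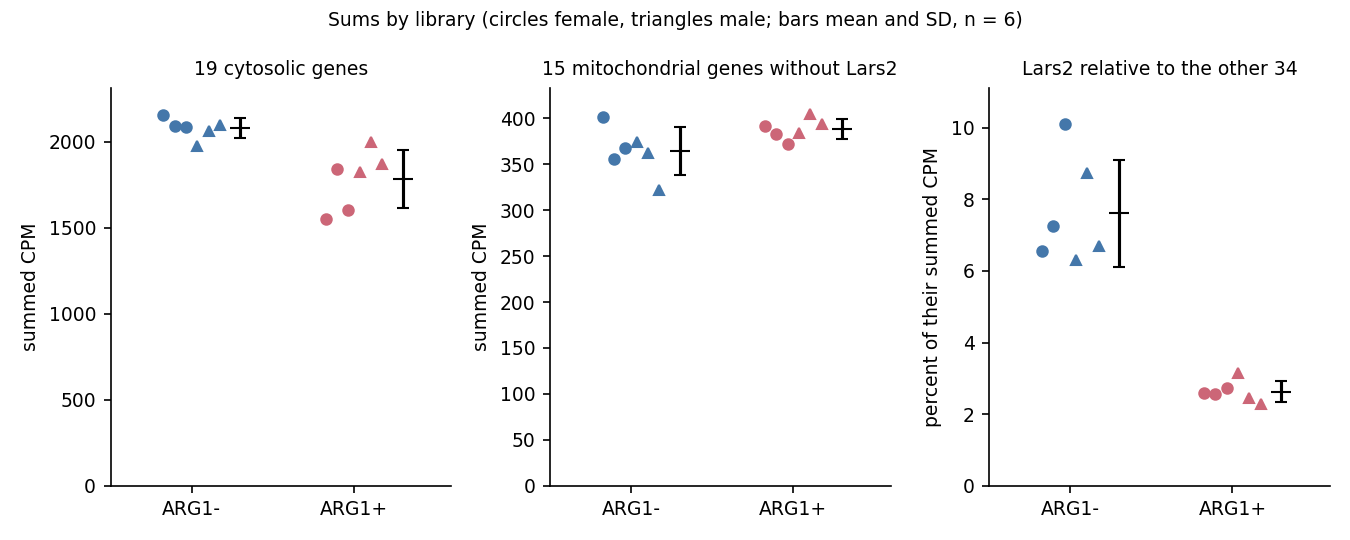
Summed CPM of the 19 cytosolic genes, summed CPM of the 15 mitochondrial genes without Lars2, and Lars2 as a percent of the summed CPM of the other 34 genes, in each library (circles female, triangles male, bars mean and SD, n = 6). The cytosolic sum lay between 1977 and 2155 in ARG1- and between 1552 and 1997 in ARG1+ libraries, the mitochondrial sums overlapped, and the Lars2 share separated the populations.

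The promoters of the synthetases were searched for the letters of the element through which ATF4 and its C/EBP partners act, TGATGNAA (N is any base), on both strands. Windows of 250 bases before to 50 bases after the start site were taken from RefSeq (GRCm38.p6), where 26 of the 35 genes had an entry. The element was found in 5 of 12 cytosolic genes, in 0 of 14 mitochondrial genes and in 4.51% of all 27025 genes with a promoter. A gene counted if any of its promoter entries held the element. For each of the 5 genes the match nearest the start site is shown 5′ to 3′ on the strand of the gene with the 8 matched letters in capitals, so that a match on the opposite strand reads as the reverse complement.
Aars, chr8:111033841-111033868: gcgggtcactTTTCATCAgagcgctctg
Gars, chr6:55037961-55037988: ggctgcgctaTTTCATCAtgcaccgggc
Iars, chr13:49682127-49682154: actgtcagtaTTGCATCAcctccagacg
Tars, chr15:11399656-11399683 (minus strand): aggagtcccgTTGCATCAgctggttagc
Yars, chr4:129189896-129189923: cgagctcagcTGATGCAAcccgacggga
All windows are on the plus strand except that of Tars. Of the 5 genes, Yars was the single one that fell. Aars, Gars (the glycyl enzyme, shared by both compartments), Iars (isoleucyl) and Tars (threonyl) did not pass the limit, with log2 fold changes of -0.34, -0.23, -0.07 and -0.09. A match gives the letters in the window and not the binding of a factor.

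Per kb of transcript, the 15 mitochondrial synthetases other than Lars2 lay between 0.679 CPM (Mars2, methionyl) and 18.0 CPM (Rars2, arginyl) in ARG1- microglia and between 0.952 and 15.5 CPM in ARG1+ microglia, and the cytosolic genes between 18.7 and 118 CPM and between 16.1 and 87.3 CPM. None of the 15 passed the limit. The smallest adjusted p-values belonged to Sars2 and Nars2. Sars2, the mitochondrial seryl enzyme, had 8.08 ± 2.66 CPM in ARG1- and 13.5 ± 2.53 CPM in ARG1+ microglia (n = 6 each, log2 fold change 0.74, SE 0.25, edgeR adjusted p = 0.0620). Nars2, the mitochondrial asparaginyl enzyme, had 11.7 ± 2.95 CPM and 17.4 ± 2.82 CPM (n = 6 each, log2 fold change 0.59, SE 0.20, edgeR adjusted p = 0.0650). In both genes the ranges overlapped. Cars2, the cysteinyl enzyme, ranged from 7.66 to 26.9 CPM in ARG1- and from 22.4 to 32.7 CPM in ARG1+ libraries (log2 fold change 0.69, SE 0.29, edgeR adjusted p = 0.135). The lowest log2 fold change among the 15 was that of Pars2 (prolyl), at -0.54 (SE 0.30, edgeR adjusted p = 0.269). Summed over the 15 genes, the level was 364 ± 26.1 CPM in ARG1- libraries (from 322 to 402) and 388 ± 11.1 CPM in ARG1+ libraries (from 373 to 405), ranges that overlapped.

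Aars2, the mitochondrial alanyl enzyme, had 0 counts in the ARG1- male library 14, where a limit of 3 counts equals 0.0889 CPM. In the other 11 libraries it had at least 543 counts (14.5 CPM or more). Its mean was 16.8 ± 11.4 CPM in ARG1- and 21.4 ± 3.83 CPM in ARG1+ microglia (n = 6 each, edgeR adjusted p = 0.760).

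Lars2 encodes the mitochondrial leucyl-tRNA synthetase (ENSMUSG00000035202, GRCm38 chr9:123366927-123462666, plus strand). In ARG1- microglia it had 168, 177 and 248 CPM in the female libraries and 148, 212 and 162 CPM in the male libraries. In ARG1+ microglia it had 50.5, 57.2 and 53.8 CPM in the female and 69.5, 58.7 and 51.6 CPM in the male libraries. Every ARG1+ library thus lay below every ARG1- library. The means were 186 ± 37.1 CPM and 56.9 ± 6.96 CPM (SD, n = 6 each), a level 3.27-fold lower in ARG1+ microglia. The log2 fold change of Lars2 was -1.71 (SE 0.14, edgeR adjusted p = 0.000187), and it lay between -1.95 and -1.60 over the 9 alternative settings and the 12 fits with 1 library left out.

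This was the largest difference among the 35 synthetases in this fit. Among the members that fell, Yars and Farsa came next, both at -0.65. Lars2 amounted to 7.61 ± 1.501% of the summed CPM of the other 34 synthetases in ARG1- libraries (from 6.31% to 10.1%) and to 2.63 ± 0.297% in ARG1+ libraries (from 2.28% to 3.15%). Among the 16 mitochondrial genes it moved from the highest level per kb to the third. Its level per kb was 47.7 CPM in ARG1- microglia, rank 4 of all 35, and 14.6 CPM in ARG1+ microglia, rank 22. The ratio of Lars2 to the cytosolic Lars was 2.79 ± 1.49 in ARG1- and 0.688 ± 0.170 in ARG1+ libraries.

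**Figure D4:**
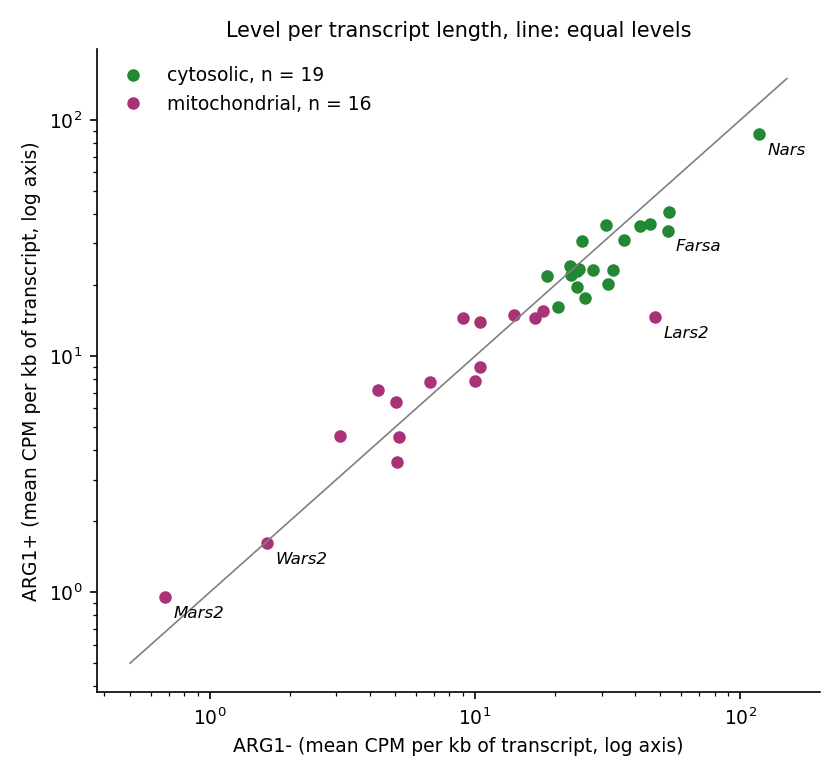
Mean CPM per kb of transcript in ARG1- (x axis, log scale) and ARG1+ microglia (y axis, log scale) for 19 cytosolic (green) and 16 mitochondrial genes (purple), with a line of equal levels. Lars2 lies farthest below the line, at 47.7 and 14.6 CPM per kb, and Nars has the highest level in both populations.

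Part of the Lars2 transcript was found to match a transcript listed as ribosomal RNA-like. The 96 protein-coding transcripts of the 35 members were compared by blastn with GENCODE M21 transcripts of the 5 ribosomal RNA-like genes in the table and of AA474408 and Gm23935, both chosen after their values or sequence were seen, with at least 40 aligned bases at 90% identity or more. Only Lars2 matched. In the Lars2 transcript of 3894 bases and 21 exons the coding part ended at base 2908, and bases 3278 to 3349 of the 3′ UTR (chr9:123462048-123462119) matched Gm15564, an antisense RNA gene on chromosome 16, over 72 bases at 98.6% identity. Bases 3233 to 3329 and 3163 to 3212 matched the RNA gene AA474408 at 94.8% and 96% identity. A stretch of 30 bases of the match is shown, common to both transcripts but for 1 base, from base 3315 of that Lars2 transcript and from base 216 of Gm15564, with the mismatched base in capitals.
Lars2: ggaacgtgagctgggAttagaccgtcgtga
Gm15564: ggaacgtgagctgggTttagaccgtcgtga
How the authors' counting treated reads that map to several places is not given in the sources used here, and the counts hold no positions within a gene. How many Lars2 counts come from this part of the transcript was not tested.

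The genes of the ribosomal RNA-like list were set beside Lars2, whether or not they matched it in sequence. Of 9 such genes listed 5 were in the table. Among these, 4 fell in ARG1+ microglia, against 9.42% of all genes tested. Gm15564 ranged from 52.3 to 104 CPM (median 66.3) in ARG1- libraries and from 7.45 to 17.8 CPM (median 12.8) in ARG1+ libraries, with a log2 fold change of -2.42 (SE 0.24, edgeR adjusted p = 0.000275). CT010467.1, annotated as ribosomal RNA on chromosome 17, ranged from 565 to 1327 CPM (median 837) and from 161 to 348 CPM (median 271), with a log2 fold change of -1.66 (SE 0.25, edgeR adjusted p = 0.00126). Neither gene had populations that overlapped. The mitochondrial ribosomal RNAs mt-Rnr1 and mt-Rnr2 also fell, with log2 fold changes of -1.99 (adjusted p = 0.0100) and -1.61 (adjusted p = 0.00825), but their populations overlapped. Within the sexes both passed the limit in males (-2.80 and -2.20, edgeR adjusted p = 0.0233 and 0.0242) and neither in females (-1.18 and -1.01, edgeR adjusted p = 0.193 and 0.173), and the sex difference did not pass (interaction adjusted p = 0.519 and 0.573 in edgeR). The gene n-R5-8s1 had no call (log2 fold change -0.15, adjusted p = 0.886). The part of ribosomal RNA in the Lars2 counts was not tested. AA474408, chosen after its sequence and values were seen, had 4.72 ± 4.24 CPM in ARG1- and 6.80 ± 2.23 CPM in ARG1+ microglia, with no call (log2 fold change 0.53, adjusted p = 0.634).

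**Figure D5:**
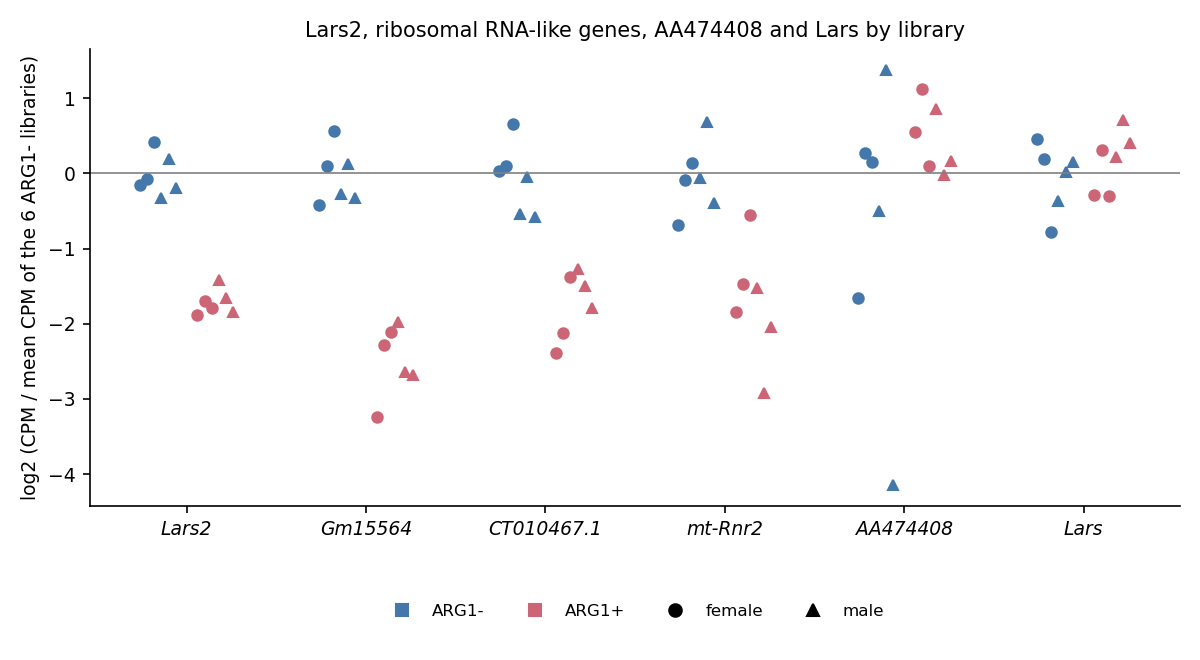
Log2 of CPM over the mean CPM of the 6 ARG1- libraries (y axis) for Lars2, 3 ribosomal RNA-like genes, AA474408 and Lars in each library (blue ARG1-, red ARG1+, circles female, triangles male). The ARG1+ libraries of Lars2, Gm15564 and CT010467.1 all lie below the ARG1- libraries, and those of AA474408 and Lars overlap with them.

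As a measure of likeness, log2 CPM of Lars2 was correlated with that of every gene over the 12 libraries, which fell into their 2 populations. The 5 genes with the highest Pearson r were Lpxn (0.986), Gm15564 (0.982), Gm23935 (0.975), Tnfaip8l2 (0.974) and Rgs2 (0.971). CT010467.1 ranked 48th at 0.951, and mt-Rnr2 and mt-Rnr1 had r of 0.827 and 0.794. Lpxn encodes the adaptor protein leupaxin and Rgs2 a regulator of G protein signalling. Lpxn, Tnfaip8l2 and Rgs2 had log2 fold changes of -0.95, -0.89 and -1.04, which were smaller than that of Lars2, and Gm23935, annotated as a miRNA gene, had -2.36.

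Within the sexes, Lars2 fell in females (log2 fold change -1.88, edgeR adjusted p = 0.00138) and in males (-1.54, adjusted p = 0.00918), and these values did not pass the test of a difference between the sexes (interaction adjusted p = 0.768 in edgeR). In females Farsa, Sars, Yars and Lars2 fell, 4 of 35 against 6.76% of all genes called in that comparison. In males Farsb and Lars2 fell, 2 of 35 against 5.13%. The log2 fold change had the same sign in both sexes in 23 of the 35, and the share over all genes was not counted. The ARG1 difference itself differed by sex in 0 of the 35 after adjustment, in edgeR and in DESeq2, as in 0% of all genes in edgeR. At an unadjusted p under 0.05 there were 4 (Vars, Sars, Rars2 and Farsb), against 9.32% of all genes. Vars, the valyl enzyme, had a log2 fold change of -0.19 in females and 0.60 in males (interaction adjusted p = 0.486 in edgeR). Rars2 had 0.32 in females and -0.65 in males, and Sars -0.57 and -0.01, with an adjusted interaction p of 0.486 for both. Between females and males of the same population 0 synthetases passed the adjusted limit in edgeR, against 0.0946% of all genes in ARG1- and 0.0355% in ARG1+ microglia. At an unadjusted p under 0.05 there were 5 in ARG1- microglia (10% of all genes) and 1 in ARG1+ microglia (3.12% of all genes).

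Of the 3 scaffold genes of the multi-synthetase complex 2 fell, against 9.42% of all genes tested. Aimp2, which encodes the p38 scaffold, ranged from 28.5 to 40.7 CPM (median 38.5) in ARG1- and from 17.0 to 23.2 CPM (median 20.7) in ARG1+ libraries. Eef1e1, which encodes the p18 scaffold, ranged from 21.01 to 37.5 CPM (median 28.6) and from 8.72 to 15.1 CPM (median 13.9). In both genes the populations did not overlap, with log2 fold changes of -0.83 (SE 0.13, edgeR adjusted p = 0.00158) and -1.10 (SE 0.19, edgeR adjusted p = 0.00258). Aimp1, the p43 scaffold, had 26.0 ± 10.4 CPM and 17.4 ± 3.17 CPM, with no call (log2 fold change -0.57, adjusted p = 0.130).

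Of 14 other factors of tRNA charging and proofreading 1 fell, 0 rose and 13 did not pass the limit, with a median log2 fold change of -0.10. The count that fell was near the share over all genes tested, 9.42%. The gene that fell was Gatb, a subunit of the amidotransferase that makes mitochondrial glutaminyl-tRNA, with 40.9 ± 6.61 CPM in ARG1- and 23.1 ± 6.32 CPM in ARG1+ microglia (log2 fold change -0.82, SE 0.20, edgeR adjusted p = 0.0182). The other subunits, Qrsl1 and Gatc, had log2 fold changes of -0.35 (adjusted p = 0.415) and 0.02 (adjusted p = 0.936). Without the ARG1+ male library 12, Gatb had an adjusted p of 0.0514.

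Of 28 genes of the amino acid response 26 were tested, 1 rose, 2 fell and 23 did not pass the limit. Their median log2 fold change was -0.01. Over all genes tested, 6.44% passed as higher and 9.42% as lower, so these counts do not set the list apart. Phgdh, the first enzyme of serine synthesis, ranged from 189 to 269 CPM (median 203) in ARG1- and from 99.4 to 140 CPM (median 113) in ARG1+ libraries, without overlap (log2 fold change -0.90, SE 0.13, edgeR adjusted p = 0.00101). Mthfd2, an enzyme of mitochondrial one-carbon metabolism, fell by 1.05 on the log2 scale (SE 0.31, edgeR adjusted p = 0.0371). Atf3, a stress-induced transcription factor, rose (log2 fold change 0.99, SE 0.30, edgeR adjusted p = 0.0401). With 1 library left out, Mthfd2 passed the limit in 4 of 12 fits and Atf3 in 3 of 12. Atf4 itself had 84.5 ± 22.5 CPM in ARG1- and 69.8 ± 11.7 CPM in ARG1+ microglia (no call, log2 fold change -0.28, adjusted p = 0.350). Trib3 and Chac1, which are strongly induced in that response, were at 0 counts in nearly all libraries and were not tested.

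Markers of other cell types were low beside those of microglia, and some differed between the populations. The summed CPM of 8 oligodendrocyte markers was 263 to 384 in ARG1- and 171 to 266 in ARG1+ libraries. That of 8 astrocyte markers was 179 to 224 and 130 to 152, with 1 gene of each list lower in ARG1+ microglia. These genes, Cnp (mean 194 and 133 CPM) and Slc1a3 (176 and 131 CPM), made up most of their sums. The log2 fold change was negative in 7 and positive in 1 of the oligodendrocyte markers. Of the astrocyte markers 5 were negative and 3 positive. Sums of 8 border macrophage markers (106 to 141 and 111 to 237), 8 neuron markers (4.26 to 16.8 and 2.32 to 9.09) and 8 endothelial markers (30.5 to 58.8 and 44.9 to 84.3) overlapped, with 0 genes called by edgeR. Most of the border macrophage sum was Mrc1 (100 to 138 and 102 to 231 CPM). Most of the endothelial sum was Pecam1 (25.4 to 56.1 and 36.2 to 80.6 CPM). The sum of 6 erythroid markers was 3.69 to 17.7 and 0 to 3.39, with 1 gene lower, against 9.42% of all genes tested. The part of these cells in the synthetase differences was not tested.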

How the data were processed

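RNA was amplified with SMART-Seq v4, made into Nextera XT libraries and read as 75-base single-end reads. The values the authors deposited are raw counts per gene, with no normalization. Per the submitters' processing notes and the study's methods, bcl2fastq 2.20.0, STAR 2.6.1d (GRCm38), featureCounts 1.5.1 and DESeq2 1.28.1 were used; strand and multi-mapping settings are not given in the sources used here. All 12 columns were matched to a library by name, with 0 unused. GENCODE M21 named 55227 of 55487 identifiers, and the others held 0.0333% of counts.

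The filterByExpr function of edgeR 4.0.16 (R 4.3.3) kept 16908 genes. TMM normalization was followed by the quasi-likelihood test (glmQLFit, glmQLFTest), with sex as a covariate and an adjusted p limit of 0.05. Contrasts within each sex and the interaction were taken from a model with 1 mean per group. The standard error is the log2 fold change divided by the square root of F. The procedure was tested on simulated data. Transcripts were compared with blastn 2.17.0. One promoter match is not reported here. Log2 CPM used a prior count of 2.

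Members, lists and tests were chosen with earlier results of these data known. Full values are given for members at an adjusted p under 0.05 or with populations that do not overlap, for genes of the other lists at that limit, and for the 5 genes most correlated with Lars2; any further gene was picked with its values in view. Alternatives were other scalings (DESeq2 size factors, upper quartile), other filters (none, at least 10 counts in every library), a term for libraries numbered 13 to 16, ARG1 status alone, DESeq2 1.42.0, thinned counts, a correction of each library for transcript length and GC content (mgcv 1.9.3), and each library left out.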

Additional observations from a re-analysis of the deposited data

Results flagged for a closer look

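Among 72 sets of 6 libraries (35 synthetases and the total count, in each population), 4 held a library whose gap to its nearest neighbour was large relative to the whole range by Dixon's criterion, where about 1 in 20, or 3.6, are flagged by chance. All 4 were ARG1+ libraries. Yars had 41.2 CPM in the female library 15, against 59.0 to 66.3 CPM in the others, and in the same library Qars had 25.8 CPM against 45.4 to 55.1 CPM. In the male library 11, Kars had 46.1 CPM against 34.6 to 38.7 CPM, and Dars had 83.4 CPM against 87.8 to 90.4 CPM.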

How the results depend on the processing

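Over 9 alternative settings and 12 fits with 1 library left out, the number of synthetases that fell stayed between 5 and 7 (7 as reported), and Lars2, Farsa, Nars and Yars passed the limit in all of them, with an adjusted p for Lars2 of at most 0.00126. The number that rose, 0 as reported, was 1 with at least 10 counts in every library and 1 with ARG1 status alone. It was 2 with DESeq2's Wald test and 0 to 1 with a library left out. The share over all genes was not counted in those settings. Sars2 rose without the ARG1- female library 1 or the ARG1- male library 14, and Nars2 without the ARG1- male library 5. The cause was not tested. No synthetase at an adjusted p under 0.05 changed sign. Of the 28 without a call, 10 changed sign after the correction for transcript length and GC content: Cars (-0.09), Eprs (-0.087), Hars (0.10), Lars (-0.010), Vars (-0.24), Ears2 (-0.17), Mars2 (-0.045), Rars2 (0.108), Tars2 (-0.11) and Wars2 (-0.14). With 1 library left out 6 did so, among them Rars2, which ranged from -0.256 to 0.0088, and with ARG1 status alone Wars2 did (-0.03). The ribosomal RNA-like n-R5-8s1 was at 0.0002 after the correction and ranged from -0.333 to 0.066 with 1 library left out. The median log2 fold change of all genes was 0.06 with TMM, 0.09 with DESeq2 size factors and 0.07 with upper-quartile factors. No paired analysis was possible because the groups share no replicate number in the labels, and nothing else in the labels ties libraries of the same litter. With 3 pooled libraries per group, the median SD of log2 CPM for mitochondrial genes within a population was 0.480 in ARG1- and 0.273 in ARG1+ microglia. For cytosolic genes it was 0.287 and 0.199, and the sets were not matched for level.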
